A study of Mus musculus with 7 samples.

Results

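The genes examined encode the tricarboxylic acid (TCA) cycle and the steps by which pyruvate and amino acids enter it. They form a list of 34 genes chosen by function, matched to the array by gene symbol with 1 probe set per gene, of which 32 were measured among 19505 named genes. Mpc2 and Glud1 were not matched to a named probe set and are not analysed here. The samples are splenic cDC1, type 1 conventional dendritic cells, which specialise in showing captured antigen to CD8 T cells. They were sorted from C57BL/6 mice and their RNA was read on whole-transcript microarrays. Every mouse bore a B16-OVA tumor, grown from a melanoma line made to express ovalbumin. The 3 WT arrays came from wild-type mice, and the 4 KO arrays from CD11c-Cre; OPA1 flox mice, in which Cre recombinase driven by CD11c, a gene of dendritic cells and some macrophages, acts on a floxed Opa1. OPA1 fuses the inner mitochondrial membrane and shapes its cristae. Age and sex of the mice are not given in the sources used here. Whether each array stands for its own mouse is not labelled. All p-values therefore reflect array-to-array spread alone, some of which may be technical.

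Pyruvate made by glycolysis crosses the inner mitochondrial membrane through a carrier and is turned into acetyl-CoA by the pyruvate dehydrogenase complex, which kinases switch off and phosphatases switch on. The TCA cycle oxidises acetyl-CoA, passes electrons to the respiratory chain, and supplies citrate, 2-oxoglutarate and oxaloacetate to lipid and amino acid synthesis. Activated dendritic cells draw on citrate export for fatty acid synthesis, and activated myeloid cells divert cis-aconitate to itaconate.

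The deposited values are log2 intensities, and each difference is KO minus WT. Values of single arrays are listed in the order of their numbers, WT 1 to 3 and KO 1 to 4. Opa1 itself gave 8.14, 8.80 and 9.15 for WT and 7.70, 7.10, 6.85 and 8.24 for KO. KO 4 therefore lay above WT 1. The difference was -1.22 (95% confidence interval -2.06 to -0.38), with an unadjusted p of 0.0101 and an adjusted p of 0.223 in limma and a p of 0.114 in an exact two-sided permutation test. With 35 possible splits of the arrays, that permutation test could not give a p under 0.05 whatever the values. The Opa1 difference was -0.995 without WT 3 and -1.67 without WT 1 and WT 2. Where the probes lie relative to the deleted part of the gene was not analysed here. The arrays labelled WT 1 and WT 2 stood apart from the other 5 in genes that mark cell types. Of 15 melanocyte markers all were measured, and their mean level was 11.25, 11.58 and 8.86 for WT and 7.22 to 7.89 for KO. Of 15 cDC1 markers all were measured, and theirs was 10.88, 9.38 and 11.68 for WT and 11.70 to 11.75 for KO. The defining melanocyte gene Pmel gave 13.51, 13.59 and 11.62 for WT and 7.99 to 9.75 for KO. Cd8a, which marks resident cDC1 of spleen, gave 7.89, 6.96 and 12.11 for WT and 11.95 to 12.12 for KO. Xcr1, another cDC1 marker, gave 12.12, 7.97 and 12.76 for WT and 12.70 to 12.79 for KO. The cDC1 markers were thus on average at like levels on WT 3 and the KO arrays. Among single markers, Itgae and Zbtb46 on WT 3 lay below every KO array, and Cd24a and Ly75 above. Cd8a was low on WT 1 and WT 2, whereas Xcr1 was far lower on WT 2 than on WT 1. Markers of type 2 conventional dendritic cells (6 measured) averaged 8.64, 9.56 and 9.06 for WT and 8.33 to 8.87 for KO. Monocyte and macrophage markers (11 measured) averaged 8.82, 9.95 and 9.38 for WT and 8.49 to 9.04 for KO. WT 1 and WT 2 thus also differed from each other. Plasmacytoid dendritic cell markers (5 measured) averaged 9.24, 9.33 and 10.30 for WT and 9.73 to 9.97 for KO. The averages of B cell, T and NK cell, neutrophil, erythroid, and fibroblast and endothelial markers on WT 3 lay within the KO range. Results are given below with and without the arrays that stood apart. In such bulk samples, fewer cells of a type and less RNA per cell cannot be told apart.

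The genes of the TCA cycle and pyruvate entry had, for the most part, a lower mean in KO than in WT, by small amounts. The mean was lower in KO for 25 of the 32 measured genes (78.1%), where 40.1% of all named genes had a lower mean. After median centring it was lower for 23 of 32 and after quantile normalization for 18. The share of all named genes with a lower mean was not counted after either rescaling. The median difference over the 32 genes was -0.13, while that over all named genes was 0.059. None of the 32 passed the threshold of 0.05 after Benjamini-Hochberg adjustment over all genes in limma (smallest adjusted p = 0.223), and 0% of all named genes passed. At an unadjusted p under 0.05 there were 9, all lower in KO, which is 28.1% of the 32 against 19.6% of all named genes, and 10.6% of all named genes on the lower side. They were Idh3a, Idh1, Got1, Ogdh, Pcx, Suclg2, Mdh2, Mpc1 and Acly. After median centring 6 of the 32 had such a p (18.8%, against 22.6% of all named genes). After quantile normalization 7 did (21.9%, against 21%). None of the genes with a higher mean in KO reached an unadjusted p under 0.05, where 8.98% of all named genes did. Idh3a alone had groups that did not overlap, 3.12% of the 32 against 13.8% of all named genes, 5.92% with KO below WT and 7.85% with KO above.

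**Figure D1:**
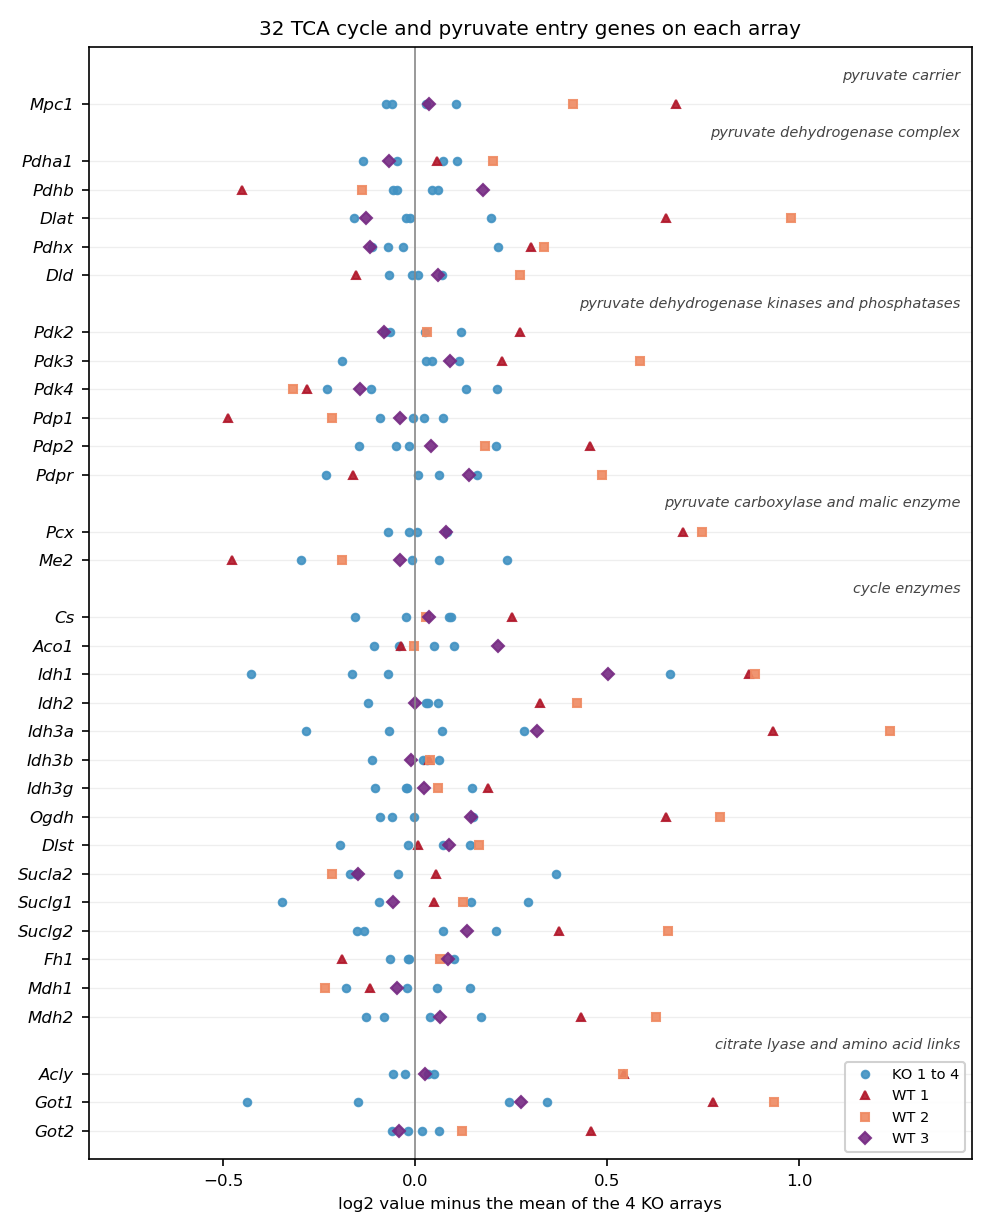
Log2 value of each of the 32 measured genes on each array, minus the mean of the 4 KO arrays, with genes on the vertical axis ordered by role. Circles are KO arrays, the triangle, square and diamond are WT 1, WT 2 and WT 3. WT 1 and WT 2 lie to the right of all KO circles for 14 genes, and WT 3 lies within the KO circles for 27.

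The 3 WT arrays did not agree among themselves. For 14 of the 32 genes (43.8%) each of WT 1 and WT 2 exceeded all 4 KO arrays, where 20.6% of all named genes did so. For 3 genes (9.38%), Pdhb, Pdk4 and Pdp1, both lay below every KO array, where 25.4% of all named genes did so. WT 3 lay within the range of the KO arrays for 27 of 32 genes (84.4%), against 57.7% of all named genes. WT 3 was above every KO array for Pdhb, Aco1 and Idh3a (9.38% against 18.1% of all named genes). It was below every KO array for Pdhx and Pdk2 (6.25% against 24.2%). WT 3 was above the KO mean for 19 genes (59.4%, against 44.7% of all named genes). The mean of the 32 genes relative to the KO mean was 0.22, 0.30 and 0.051 for WT and -0.020 to 0.023 for KO. On the same scale the melanocyte markers stood at 3.64, 3.97 and 1.24 for WT, and the cDC1 markers at -0.84, -2.34 and -0.031. The part of these cell type markers in the differences was not tested.

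**Figure D2:**
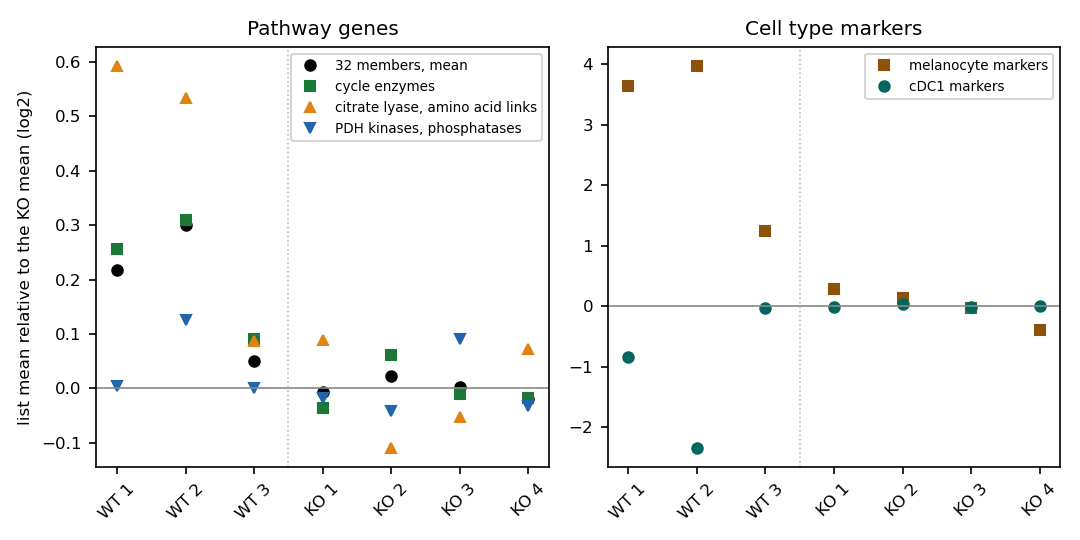
Mean of gene lists on each array relative to the mean of the 4 KO arrays, on the log2 scale, for the 32 genes and 3 of their roles (left) and for 15 melanocyte and 15 cDC1 markers (right; the vertical scales differ). PDH is pyruvate dehydrogenase. The 32 genes stand at 0.22 and 0.30 on WT 1 and WT 2 and at 0.051 on WT 3, and the melanocyte markers at 3.64, 3.97 and 1.24.

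The comparison was therefore also made without WT 3 and without WT 1 and WT 2. Without WT 3, 11 of the 32 genes (34.4%) passed the adjusted threshold in limma, all lower in KO. In that comparison 25.3% of all named genes passed, 13.8% lower and 11.4% higher in KO. The 11 were Mpc1, Dlat, Pcx, Idh1, Idh2, Idh3a, Ogdh, Suclg2, Mdh2, Acly and Got1. It sets the pair of WT arrays with high melanocyte markers against the KO arrays. Without WT 1 and WT 2, none of the 32 passed (smallest adjusted p = 0.877), as 0% of all named genes did, and none had an unadjusted p under 0.05, where 5.92% of all named genes did. The lone WT array was then assumed to vary like the KO arrays. The median difference over the 32 genes was -0.16 without WT 3 and -0.036 without WT 1 and WT 2, and 10 genes changed direction in the latter.

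**Figure D3:**
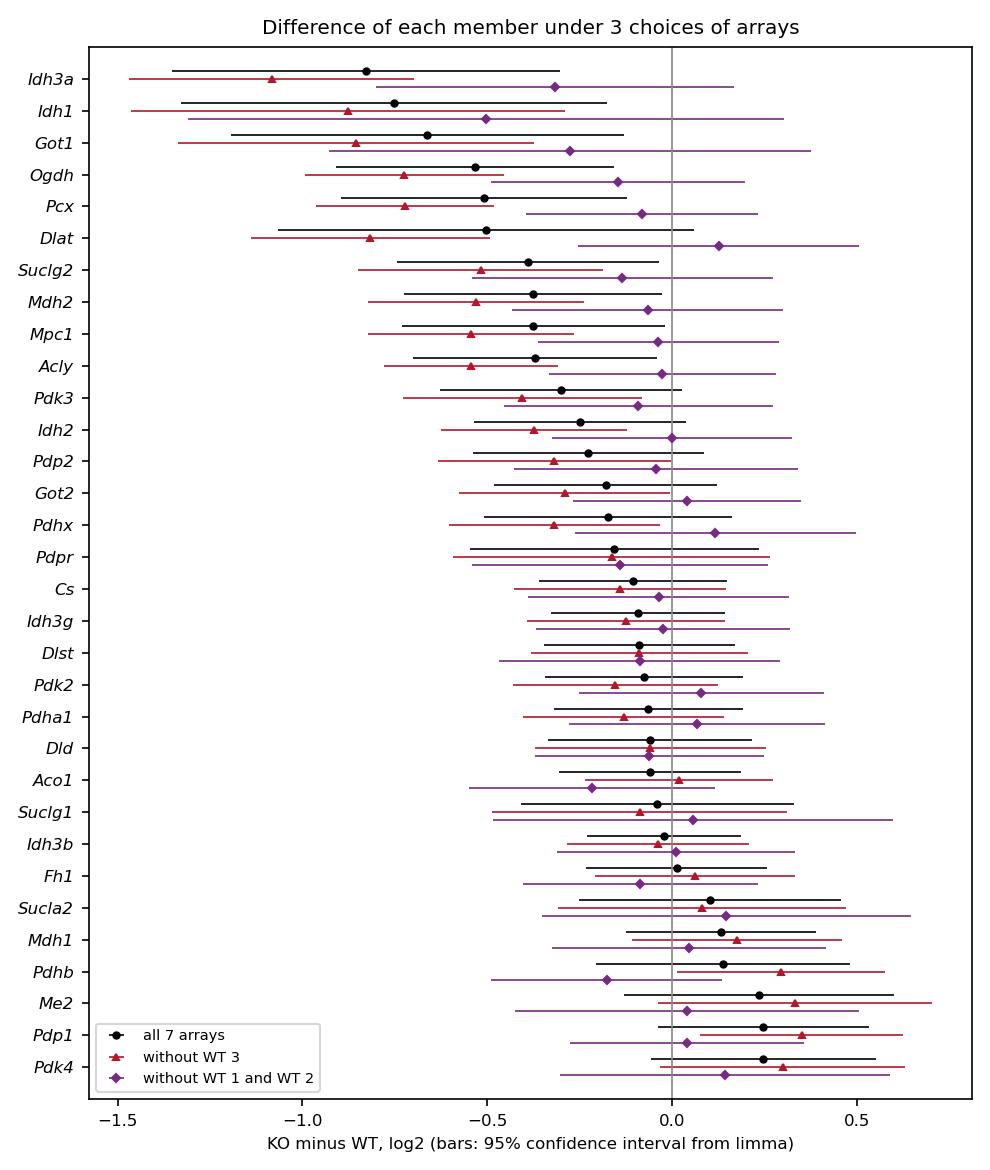
Difference of each of the 32 genes, KO minus WT in log2 units on the horizontal axis, with 95% confidence intervals from limma, for all 7 arrays (circles), without WT 3 (triangles) and without WT 1 and WT 2 (diamonds). Without WT 1 and WT 2 all 32 intervals include 0. Without WT 3 the difference of Idh3a is -1.08 and without WT 1 and WT 2 it is -0.32.

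Isocitrate dehydrogenases convert isocitrate to 2-oxoglutarate. All 5 of their genes had a lower mean in KO, where 40.1% of all named genes did. None of the 5 passed after adjustment, and Idh2 and Idh3b were not lower without WT 1 and WT 2 (0.00077 and 0.011). Idh3a, the catalytic subunit of the NAD-dependent mitochondrial enzyme, gave 10.68, 10.98 and 10.06 for WT and 9.68, 10.03, 9.82 and 9.46 for KO. All 3 WT arrays lay above all KO arrays, though WT 3 exceeded KO 2 by little. The means were 10.58 ± 0.47 (SD, n = 3) for WT against 9.75 ± 0.24 (SD, n = 4) for KO, a difference of -0.83 with a standard error of 0.23 (limma, adjusted p = 0.223). Of the other subunits of that enzyme, Idh3b differed by -0.021 (95% confidence interval -0.23 to 0.19) and Idh3g by -0.091 (-0.33 to 0.14). Idh3b read 9.73 ± 0.028 (SD, n = 3) for WT against 9.71 ± 0.077 (SD, n = 4) for KO. Differences between subunits were not tested.

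Idh1, the cytosolic NADP-dependent enzyme, gave 10.50, 10.51 and 10.13 for WT and 9.56, 9.20, 9.46 and 10.29 for KO. WT 3 was above 3 of the 4 KO arrays and below KO 4. The means were 10.38 ± 0.22 (SD, n = 3) and 9.63 ± 0.47 (SD, n = 4), a difference of -0.75 (standard error 0.25, limma adjusted p = 0.223). Without WT 1 and WT 2 it was -0.50, with a 95% interval from -1.31 to 0.30, the difference farthest from 0 among the 32 genes in that comparison. Idh2, the mitochondrial NADP-dependent enzyme, differed by -0.25 (-0.54 to 0.039). It stood at 11.65 and 11.75 on WT 1 and WT 2, and WT 3, at 11.33, lay within the KO range of 11.21 to 11.39.

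Ogdh, the first component of the 2-oxoglutarate dehydrogenase complex, gave 13.08, 13.23 and 12.58 for WT and 12.37, 12.58, 12.43 and 12.34 for KO. WT 1 and WT 2 were high, and WT 3 did not exceed KO 2. The difference was -0.53 (standard error 0.16, limma adjusted p = 0.223), and without WT 1 and WT 2 it was -0.15 (-0.49 to 0.20). Dlst, the second component of that complex, differed by -0.088 (-0.35 to 0.17), and Dld, the dehydrogenase shared with the pyruvate complex, by -0.059 (-0.33 to 0.22).

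Of the succinyl-CoA ligase genes, Suclg2, the subunit of the GDP-forming enzyme, gave 9.51, 9.80 and 9.27 for WT and 9.21, 8.99, 9.01 and 9.35 for KO. KO 4 lay above WT 3, and the difference was -0.39 (standard error 0.15, limma adjusted p = 0.238). Suclg1, the subunit common to both ligases, differed by -0.039 (-0.41 to 0.33), and Sucla2, of the ADP-forming enzyme, by 0.10 (-0.25 to 0.46). Both of these were uneven among the KO arrays, Suclg1 from 10.66 on KO 1 to 11.30 on KO 2, and Sucla2 from at most 8.13 on the other KO arrays to 8.54 on KO 2.

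Mdh2, the mitochondrial malate dehydrogenase, gave 12.18, 12.37 and 11.81 for WT and 11.92, 11.62, 11.67 and 11.79 for KO. WT 1 and WT 2 were above every KO array and WT 3 was below KO 1. The difference was -0.38 (standard error 0.15, limma adjusted p = 0.243). Its cytosolic counterpart Mdh1 had the opposite sign, at 11.70 ± 0.095 (SD, n = 3) for WT against 11.84 ± 0.14 (SD, n = 4) for KO, a difference of 0.13 (-0.12 to 0.39).

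The remaining genes grouped as cycle enzymes had differences between -0.11 and 0.013. Cs, citrate synthase, read 11.69 ± 0.13 (SD, n = 3) for WT against 11.59 ± 0.12 (SD, n = 4) for KO. Aco1, the cytosolic aconitase that also serves as an iron sensor, differed by -0.059 (-0.31 to 0.19), and on it WT 3, at 9.94, was the highest of the 7 arrays. Fh1, fumarate hydratase, differed by 0.013 (-0.23 to 0.26).

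The 15 genes grouped here as cycle enzymes include the cytosolic Idh1, Aco1 and Mdh1 but not succinate dehydrogenase. Of the 15, 12 had a lower mean in KO, 5 had an unadjusted p under 0.05 and none passed after adjustment. Of all named genes 40.1%, 19.6% and 0% did so. Without WT 3, 6 of the 15 passed, all lower, where 25.3% of all named genes passed and 13.8% on the lower side. With all arrays the median difference of the 15 was -0.091.

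**Figure D4:**
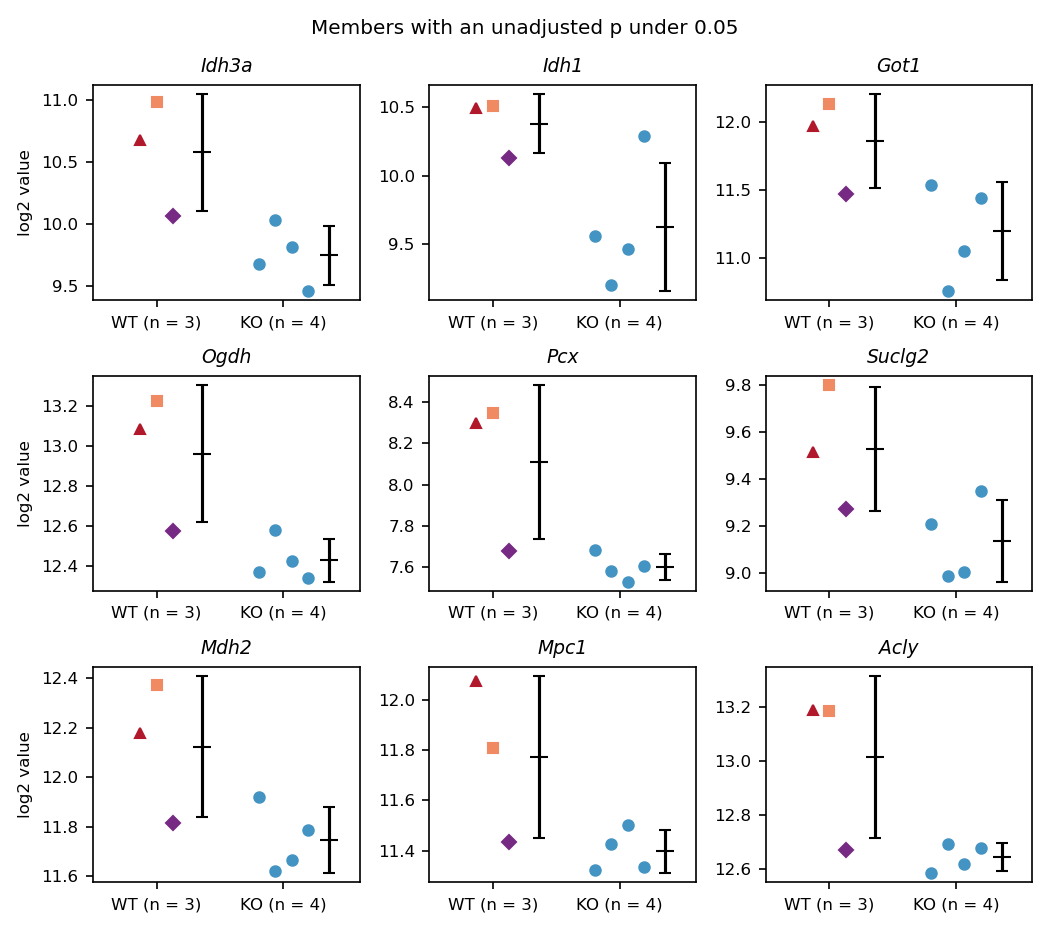
Log2 values of the 9 genes with an unadjusted p under 0.05, by group, with WT 1 as triangle, WT 2 as square, WT 3 as diamond and KO arrays as circles; black bars show the mean and SD of 3 WT and 4 KO arrays, and the vertical scale differs between panels. In each panel WT 1 and WT 2 lie above every KO array, and WT 3 does so for Idh3a alone.

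Acetyl-CoA export and amino acid links showed the same arrangement of arrays. Got1, the cytosolic aspartate aminotransferase of the malate-aspartate shuttle, gave 11.97, 12.13 and 11.47 for WT and 11.54, 10.76, 11.05 and 11.44 for KO. KO 1 lay above WT 3, and KO 2 was the lowest array. The means were 11.86 ± 0.34 (SD, n = 3) and 11.20 ± 0.36 (SD, n = 4), a difference of -0.66 (standard error 0.23, limma adjusted p = 0.224). Acly, the ATP citrate lyase that turns exported citrate into acetyl-CoA, read 13.19 on both WT 1 and WT 2 and 12.67 on WT 3. Its KO values were 12.59, 12.69, 12.62 and 12.68, a spread that held WT 3 within it. The difference was -0.37 (standard error 0.14, limma adjusted p = 0.233), and without WT 1 and WT 2 it was -0.025 (-0.33 to 0.28). Got2, the mitochondrial aspartate aminotransferase, gave 13.25, 12.91 and 12.75 for WT and 12.73 to 12.85 for KO, a difference of -0.18 (-0.48 to 0.12).

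At the entry of pyruvate, Mpc1, a subunit of the mitochondrial pyruvate carrier, gave 12.08, 11.81 and 11.43 for WT and 11.32, 11.43, 11.50 and 11.34 for KO. WT 1 was the highest and WT 3 lay among the KO arrays. The difference was -0.37 (standard error 0.15, limma adjusted p = 0.245), and without WT 1 and WT 2 it was -0.036 (-0.36 to 0.29). Pcx, pyruvate carboxylase, which makes oxaloacetate from pyruvate, gave 8.30, 8.35 and 7.68 for WT and 7.68, 7.58, 7.53 and 7.60 for KO. WT 3 did not exceed KO 1, and the difference was -0.51 (standard error 0.17, limma adjusted p = 0.223). On every array Pcx was below the highest background values of 9.29 to 9.55. Me2, the mitochondrial malic enzyme that makes pyruvate from malate, had the opposite sign, with 8.05, 8.34 and 8.49 for WT and 8.59, 8.77, 8.52 and 8.23 for KO. Its groups overlapped, and the difference was 0.24 (-0.13 to 0.60).

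Of the 5 subunits of the pyruvate dehydrogenase complex, 4 had a lower mean in KO, where 40.1% of all named genes did. Every interval included 0 with all arrays, and differences between these subunits were not tested. Dlat, the acetyltransferase core, gave 10.14, 10.47 and 9.36 for WT and 9.48, 9.47, 9.69 and 9.33 for KO. WT 3 lay below 3 of the 4 KO arrays, so that the difference of -0.50 (-1.06 to 0.061; limma, adjusted p = 0.283) became 0.13 without WT 1 and WT 2. Without WT 3 it was -0.82 (limma, adjusted p = 0.0034). Pdhx, which anchors the dehydrogenase subunit Dld to that core, gave 9.18, 9.22 and 8.76 for WT and 8.81, 8.85, 8.77 and 9.10 for KO. Here too WT 1 and WT 2 were the highest and WT 3 the lowest of the 7 arrays, with a difference of -0.17 (-0.51 to 0.16). Pdha1, the catalytic alpha subunit, differed by -0.064 (-0.32 to 0.19). Pdhb, the beta subunit, ran the other way, with 11.10, 11.42 and 11.73 for WT and 11.50 to 11.61 for KO. WT 1 and WT 2 were thus the lowest arrays for Pdhb and WT 3 the highest, and the difference was 0.14 (-0.21 to 0.48). Without WT 1 and WT 2 it was -0.18.

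Of the 6 kinases and phosphatases that set the activity of the complex, none had an unadjusted p under 0.05, where 19.6% of all named genes did. With so few genes that count says little, and their median difference was -0.12. Pdk3, a kinase, gave 9.63, 9.99 and 9.49 for WT and 9.43, 9.52, 9.45 and 9.21 for KO, a difference of -0.30 (-0.63 to 0.028). Pdp1, a catalytic phosphatase subunit, gave 8.45, 8.72 and 8.90 for WT and 8.85, 8.96, 8.93 and 9.01 for KO, a difference of 0.25 (-0.038 to 0.53). WT 1 and WT 2 were the highest arrays for Pdk3 and the lowest for Pdp1, and WT 3 lay in the KO range for both. Pdk4, a kinase induced by fasting and fatty acids, read 7.24 ± 0.092 (SD, n = 3) for WT against 7.49 ± 0.21 (SD, n = 4) for KO. Pdk2, another kinase, read 8.80 ± 0.18 and 8.73 ± 0.092. Pdp2, the second catalytic phosphatase subunit, differed by -0.23 (-0.54 to 0.087), and Pdpr, the regulatory subunit, by -0.16 (-0.55 to 0.23).

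The 4 genes with an unadjusted p under 0.05, a difference beyond -0.5 and a promoter entry were Idh1, Got1, Ogdh and Pcx. Their promoters are shown as the 250 bases before the most upstream listed start, from RefSeq on build GRCm38.p6, 5′ to 3′ on the strand of the gene. Capitals mark matches on either strand to CACGTG, the E-box, TGACGTCA, the cyclic AMP response element, or AAGGTCA, the half-site of estrogen-related receptors. None of these motifs holds another within it.
Idh1 promoter, chr1:65186480-65186729, minus strand: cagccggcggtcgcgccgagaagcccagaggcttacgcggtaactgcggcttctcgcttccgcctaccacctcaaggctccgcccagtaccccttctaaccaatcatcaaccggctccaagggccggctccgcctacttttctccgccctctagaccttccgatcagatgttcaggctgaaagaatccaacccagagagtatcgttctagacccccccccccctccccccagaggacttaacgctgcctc
Got1 promoter, chr19:43524606-43524855, minus strand: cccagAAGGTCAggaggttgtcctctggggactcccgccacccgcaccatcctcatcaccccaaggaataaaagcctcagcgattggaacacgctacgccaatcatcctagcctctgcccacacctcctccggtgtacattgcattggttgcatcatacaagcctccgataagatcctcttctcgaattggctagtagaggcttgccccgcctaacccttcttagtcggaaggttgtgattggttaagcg
Ogdh promoter, chr11:6291347-6291596, plus strand: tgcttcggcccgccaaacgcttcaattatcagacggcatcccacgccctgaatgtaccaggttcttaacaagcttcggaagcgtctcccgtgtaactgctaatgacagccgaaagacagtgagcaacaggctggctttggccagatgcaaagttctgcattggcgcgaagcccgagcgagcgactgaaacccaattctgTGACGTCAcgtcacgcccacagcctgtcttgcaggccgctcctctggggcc
Pcx promoter, chr19:4510222-4510471, plus strand: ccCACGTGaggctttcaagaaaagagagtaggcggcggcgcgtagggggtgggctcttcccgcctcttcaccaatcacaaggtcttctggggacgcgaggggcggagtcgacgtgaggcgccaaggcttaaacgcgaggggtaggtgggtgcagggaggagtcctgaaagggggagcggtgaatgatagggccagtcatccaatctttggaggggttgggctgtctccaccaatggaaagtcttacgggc
The Ogdh promoter held the cyclic AMP response element, the Got1 promoter the receptor half-site and the Pcx promoter the E-box, and the Idh1 window held none of these letters. Of the 32 genes 29 had a promoter entry. The E-box was found in 4 of the 29 (Pcx, Pdk2, Pdp2 and Pdpr), where 6.04% of 27025 promoters of the same length held it. The cyclic AMP response element was found in 3 (Mdh2, Ogdh and Pdpr), against 1.6% of promoters. The half-site was found in Got1 alone, against 4.04% of promoters. The 4 promoters thus shared none of these 3 motifs.

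The KO arrays also differed among themselves. The largest SD over the 4 KO arrays was that of Idh1 (0.47), followed by Got1 (0.36), Suclg1 (0.28) and Sucla2 (0.25). Acly, Got2, Dld and Pdhb had the smallest SDs, 0.050 to 0.060. KO 2 was the highest KO array for 15 of the 32 genes (46.9%, against 30.6% of all named genes), and KO 4 the lowest for 14 (43.8%, against 31.7%). For Idh1 and Got1 KO 2 was instead the lowest. The median SD of the 32 genes was 0.22 over the WT arrays and 0.12 over the KO arrays. The median half-width of the 95% interval of a difference was 0.33, in a range from 0.21 to 0.58.

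Of 38 other genes of the pathway, 33 were measured, and 23 had a lower mean in KO (69.7%, against 40.1% of all named genes). None passed after adjustment, and 9 had an unadjusted p under 0.05, all lower in KO (27.3%, against 19.6% of all named genes and 10.6% on the lower side). Without WT 3, 12 passed, all lower (36.4%, against 25.3% and 13.8%). Me1, the cytosolic malic enzyme, gave 10.36, 10.84 and 6.71 for WT and 5.79, 6.15, 6.12 and 6.40 for KO. Slc25a10, the mitochondrial dicarboxylate carrier, gave 11.93, 11.63 and 10.96 for WT and 10.59, 10.68, 10.71 and 10.51 for KO. For both, all WT arrays lay above all KO arrays. Without WT 1 and WT 2 the differences were -0.60 for Me1 and -0.33 for Slc25a10. WT 3, the WT array left in that comparison, also had melanocyte markers above the KO mean, by 1.24 on average. Their part in these differences was not tested. On WT 3 and the KO arrays Me1 was below the highest background values of 9.29 to 9.55. Dhtkd1, a relative of Ogdh in lysine breakdown, gave 7.44, 7.62 and 5.27 for WT and 5.18 to 5.66 for KO. On WT 3 and the KO arrays Dhtkd1 was thus near the background medians of 5.56 to 5.62. Slc25a1, the citrate carrier that supplies Acly, differed by -0.55, Slc25a22, a glutamate carrier, by -0.42, Ldha and Ldhb, the lactate dehydrogenase subunits, by -0.65 and -0.86, and Pkm, pyruvate kinase, by -0.73. For those 5, WT 1 and WT 2 were above every KO array and WT 3 was not. Acod1, which makes itaconate, gave 8.56, 9.42 and 7.65 for WT and 8.07, 6.81, 7.30 and 8.04 for KO, so that WT 3 lay in the KO range. Sdha, the flavoprotein of succinate dehydrogenase, had the opposite sign, at 10.16 ± 0.28 (SD, n = 3) for WT against 10.36 ± 0.27 (SD, n = 4) for KO.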

How the data were processed

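Log2 probe set values of 3 WT and 4 KO arrays were used, with groups and replicate numbers from the sample titles. The authors deposited these log2 values, for which the submitters' processing notes name Affymetrix Expression Console 1.1 and RMA. RMA compresses differences of dim genes. Of 22206 transcript probe sets, 19572 had 1 symbol, all matched to RefSeq by gene identifier, and the probe set with the highest mean per symbol left 19505 genes. No listed gene of the TCA cycle had more than 1 probe set. The number of arrays limits the precision. The 23 background probe sets, which differ in GC content, had medians of 5.56 to 5.62 per array and highest values of 9.29 to 9.55, so dim genes were not placed above background.

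KO was compared with WT by limma 3.58.1 in R 4.3.3 (no covariate), adjusted over all genes by Benjamini-Hochberg at 0.05. Confidence intervals are 95% intervals from that fit. The script was tested on simulated data. The genes, lists, tests and alternatives were chosen with earlier results of these data known. All listed genes are named; values on every array are given for those with an unadjusted p under 0.05 or without overlap and the 2 with the smallest p per role. Of the other pathway genes the 8 with the smallest p, Acod1 and Sdha are named. Promoters and motifs were chosen after values had been seen. The NRF1 motif was also searched and is not reported here. Alternatives left out each array, or WT 1 and WT 2 together, or changed the block, scaling, dim filter, variance model, array weights, probe set or size threshold.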

Additional observations from a re-analysis of the deposited data

Results flagged for a closer look

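Among the 4 KO arrays, 1 value stood apart from the others by Dixon's criterion, which about 1 group in 20 meets by chance. The criterion was applied to the 32 genes, the other pathway genes named above, Opa1, Pmel, Tyr, Cd8a and Xcr1. At that rate a search of this size is expected to give such a value by chance. Slc25a22, a mitochondrial glutamate carrier, read 9.85 on KO 3 and 9.65 to 9.68 on the other KO arrays. No gene among the 32 measured ones of the TCA cycle and pyruvate entry met it.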

How the results depend on the processing

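None of 19505 genes, and none of the 32 of the TCA cycle and pyruvate entry, passed adjustment with all arrays, median centring, quantile normalization, trended and robust variance, the highest-variance probe set, the replicate block, without WT 1 and WT 2, or with a difference of at least 1 required. With the dim filter, which left 10017 genes and 30 of the 32 (not Pcx and Pdk4), none passed either. With array weights, which gave WT 3 the lowest weight, 4458 genes and 11 of the 32 passed, and 18 of the 32 (56.2%, against 36.1% of all genes) had an unadjusted p under 0.05. Leaving out 1 array gave 0 to 4931 genes and 0 to 11 of the 32 passing, the upper values without WT 3. It gave 2 to 17 of the 32 with an unadjusted p under 0.05 (6.25% to 53.1%, against 8.29% to 36.9% of all genes), 1 to 17 without overlap (3.12% to 53.1%, against 16.9% to 46%), and a median difference of -0.16 to -0.10. Without WT 1 and WT 2 the median was -0.036, 0 of the 32 had an unadjusted p under 0.05 (5.92% of all genes did), and 5 did not overlap (15.6%, against 42.3%). Without overlap there were 3 after median centring (9.38%, against 16.7%) and 2 after quantile normalization (6.25%, against 14.8%). After median centring 6 of the 32 had an unadjusted p under 0.05 (18.8%, against 22.6% of all genes), and the median difference was -0.072. After quantile normalization 7 did (21.9%, against 21%), and the median was -0.065.

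The replicate block, on a number that does not pair the samples (correlations of deviations of -0.038, 0.046 and -0.017 for numbers 1 to 3), gave 0 passing genes, 6 of the 32 with an unadjusted p under 0.05 (18.8%, against 12.8% of all genes), and a median of -0.15; KO 4 does not contribute to it.

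Directions held in every alternative run for 17 of the 32 genes, 13 lower and 4 higher in KO. Of these, Pcx and Pdk4 had no value under the dim filter. The dim filter, the variance model and the highest-variance probe set left the differences unchanged, so they could not turn a direction. The same count over all named genes was not made. Directions turned with array weights for Dld (0.040), Pdpr (0.023) and Aco1 (0.020), with median centring for Idh3b (0.037) and Suclg1 (0.019), and with the replicate block for Idh3b (0.016). With quantile normalization they turned for Pdha1 (0.012), Dld (0.026), Pdk2 (0.012), Aco1 (0.015), Idh3b (0.048), Dlst (0.0039) and Suclg1 (0.00042). Without WT 1 and WT 2 they turned for Pdha1 (0.068), Pdhb (-0.18), Dlat (0.13), Pdhx (0.12), Pdk2 (0.080), Idh2 (0.00077), Idh3b (0.011), Suclg1 (0.057), Fh1 (-0.086) and Got2 (0.041). Leaving out 1 array gave ranges that crossed 0 for Pdha1 (-0.13 to 0.0051), Pdhb (-0.019 to 0.29), Dld (-0.17 to 0.047), Pdk2 (-0.15 to 0.024), Pdpr (-0.31 to 0.010), Aco1 (-0.11 to 0.019), Idh3b (-0.042 to 0.016), Sucla2 (-0.018 to 0.18), Suclg1 (-0.14 to 0.076) and Fh1 (-0.075 to 0.063). The cause was not tested. Signal over background limits the dimmest genes, and the number of arrays limits all.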
